A study of Mus musculus with 6 samples.

Results

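The mitochondrial ribosomal protein genes are the nuclear genes whose mouse symbols begin with Mrpl, for the large subunit, or Mrps, for the small subunit, followed by a digit. The family was picked for study with earlier results of these data known. Its members were then taken by symbol among the protein-coding rows of the deposited table, with no use of any measured value. This gave 78 genes, 49 Mrpl and 29 Mrps, of 14638 protein-coding rows and 20015 rows in all, and the 78 were also the complete set of such genes in the mouse annotation GENCODE M21. The study sequenced RNA from quadriceps, the large muscle that extends the knee, in 6 libraries. A group of 3 libraries, lettered A, B and C, came from quadriceps of a limb with a torn anterior cruciate ligament (ACL), the ligament that steadies the knee, and was taken before the ligament was rebuilt. The other 3 libraries, with the same letters, came from quadriceps of limbs without that injury. No genotype, strain, age, drug or time after injury is given in the sources used here for either group, and the labels do not say whether libraries of a group came from separate individuals, so p-values measure the spread between libraries, which may be technical. The organism label is mouse, whereas the design and extraction notes speak of human muscle. Of the rows, 19342 sit at the position of the mouse gene of the same name on the mm10 build, and the values are treated as mouse. The table's name calls the RNA myonuclear, that is, from muscle fibre nuclei, whereas the notes describe total RNA.

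Mitochondria keep their own ribosomes, which translate only the few messenger RNAs of the mitochondrial genome, all of them for subunits of the respiratory chain and the ATP synthase. The ribosomal RNAs of these ribosomes come from the mitochondrial genome itself, while every ribosomal protein is encoded in the nucleus, made in the cytosol and imported. Part of the proteins descend from bacterial ribosomal proteins and the rest were added in mitochondria. In skeletal muscle this machinery serves oxidative metabolism, and the transcription factors NRF1, GABP (an ETS factor) and YY1 and the coactivator PGC-1 alpha are known regulators of nuclear genes for mitochondria.

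Of the 78, 30 of the 49 large-subunit genes and 18 of the 29 small-subunit genes have a bacterial counterpart, and 19 and 11 are of mitochondria only. They are spread over 17 chromosomes, with at most 11 on 1 chromosome. A property of the loci that the choice by symbol did not use was their arrangement: 33 of the 78 (42.3%) had the start of another protein-coding gene on the opposite strand within 1000 bases, against 15.7% of 12462 tested protein-coding genes. Among these pairs were Mrps12 with Sars2, the mitochondrial seryl-tRNA synthetase, Mrpl36 with Ndufs6, a complex I subunit, and Mrpl46 with Mrps11, a large-subunit gene head to head with a small-subunit gene.

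RefSeq promoter windows of the GRCm38.p6 (mm10) build, running from 250 bases before to 50 bases after the start, were at hand for 69 of the 78 genes, in 75 windows. Exact matches on either strand were counted for 3 motifs: CGCATGCG (the NRF1 core), CCGGAAGT (ETS) and AAGATGGC (YY1). The NRF1 core was found in 9.33% of the windows of these genes, against 1.87% of all windows and 3.55% of the windows of tested genes. The ETS motif stood in 16%, against 3.89% and 7.40%, and the YY1 motif in 16%, against 2.75% and 4.24%. In all, 29 of the 75 windows (38.7%) held at least 1 of the motifs, against 8.07% of all windows and 14.2% of those of tested genes. A match describes letters in the window and is not evidence that the factor binds there. The 200 bases before the RefSeq start are shown for Mrps22, the gene with the lowest fold change, and Mrps12, the gene with the highest. They are also shown for Mrpl3, the highest in CPM, and Mrpl22, which shows the NRF1 core. Mrpl22 was chosen after its values were seen. Each is read 5′ to 3′ along the gene's own strand, and capitals mark the motif matches. They lie at chr9:98601680-98601879 (minus strand), chr7:28741822-28742021 (minus strand), chr9:105053068-105053267 (plus strand) and chr11:58171464-58171663 (plus strand).
Mrps22: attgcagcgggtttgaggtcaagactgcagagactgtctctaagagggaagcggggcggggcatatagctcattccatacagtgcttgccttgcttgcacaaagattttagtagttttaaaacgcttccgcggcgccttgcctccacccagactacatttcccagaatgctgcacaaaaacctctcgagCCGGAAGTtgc
Mrps12: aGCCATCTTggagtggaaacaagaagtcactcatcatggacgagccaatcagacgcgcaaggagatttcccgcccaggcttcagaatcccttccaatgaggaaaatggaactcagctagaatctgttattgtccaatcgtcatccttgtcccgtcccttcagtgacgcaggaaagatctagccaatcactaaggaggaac
Mrpl3: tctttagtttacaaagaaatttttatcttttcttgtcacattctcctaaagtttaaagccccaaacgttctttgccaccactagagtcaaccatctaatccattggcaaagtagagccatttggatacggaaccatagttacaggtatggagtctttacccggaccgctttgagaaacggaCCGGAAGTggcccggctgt
Mrpl22: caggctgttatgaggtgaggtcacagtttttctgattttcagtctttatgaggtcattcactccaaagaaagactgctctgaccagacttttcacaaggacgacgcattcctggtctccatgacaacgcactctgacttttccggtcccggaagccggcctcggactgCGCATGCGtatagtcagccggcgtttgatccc

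The ETS match of Mrps22 begins 11 bases before the start and that of Mrpl3 19 bases before it, and the NRF1 core of Mrpl22 begins 32 bases before it. The YY1 match of Mrps12 begins 199 bases before the Mrps12 start, beyond the start of its neighbour Sars2, which lies 172 bases away.

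The libraries held 6.45 to 8.75 M counts, and the mitochondrial ribosomal protein genes together took 0.106% (injured B) to 0.133% (non-injured A) of a library's counts. The 8 genes that define muscle fibres were all in the table with a median level of 1104 CPM per kb, and 0 of them passed the test (5 of 8 had negative log2 fold changes, median -0.03). Levels in CPM are counts scaled to the same total in each library, with the TMM factors, a correction for differences in library composition. Levels of different genes are compared as CPM per kb of annotated exon. The genes with the highest CPM are also named, and that order depends on exon length too. In a bulk library, fewer cells of a type and less RNA per cell cannot be told apart.

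Over 16095 genes tested with edgeR's quasi-likelihood test (Benjamini-Hochberg adjusted p under 0.05), 115 genes (0.715%) were higher and 5 (0.0311%) lower in injured quadriceps. Of the 78 mitochondrial ribosomal protein genes, all of which passed the filter on low counts, 0 passed this threshold in either direction. With the letter as a block, in a model that compares libraries of the same letter, 516 (3.21%) of all genes were higher and 427 (2.65%) lower, and DESeq2 called 252 (1.57%) higher and 75 (0.466%) lower. Neither called any of the 78. At an unadjusted p under 0.05, 2 of the 78 were higher and 5 lower, against 9.25% and 6.11% of all tested genes. In 6 genes every injured library was above every non-injured one and in 8 every injured library was below, against 11.9% and 9.57% of all tested genes. Both counts of the 78 are below or near those backgrounds.

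Most individual differences were small. The confidence intervals hold for each gene singly, not for the 78 at once. Log2 fold changes of the 78, injured over non-injured, ran from -0.65 (Mrps22) to 0.79 (Mrps12), and 71 of the 78 lay within 0.5 of 0. The median standard error was 0.22. For 67 of the 78 the whole 95% confidence interval lay within 1 log2 unit of 0, so larger changes lie outside the intervals of these genes. In the remaining genes the interval reached further, as in Mrps12 (0.29 to 1.29). The sign was negative in 51 and positive in 27, with a median of -0.10, beside a median of 0.00 over all tested genes and -0.02 over the 11168 tested genes in the same range of mean counts. A negative sign was found in 65.4% of the 78, beside 49.8% of all tested genes and 52.4% of those in the same range of mean counts. Among the 9058 tested genes with a mean of at least 50 counts it was 60.5%, and their median was -0.07. Refitted with that filter, the 66 members tested had a median of -0.04 and 37 negative signs, beside a median of -0.0003 over all genes tested.

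**Figure D1:**
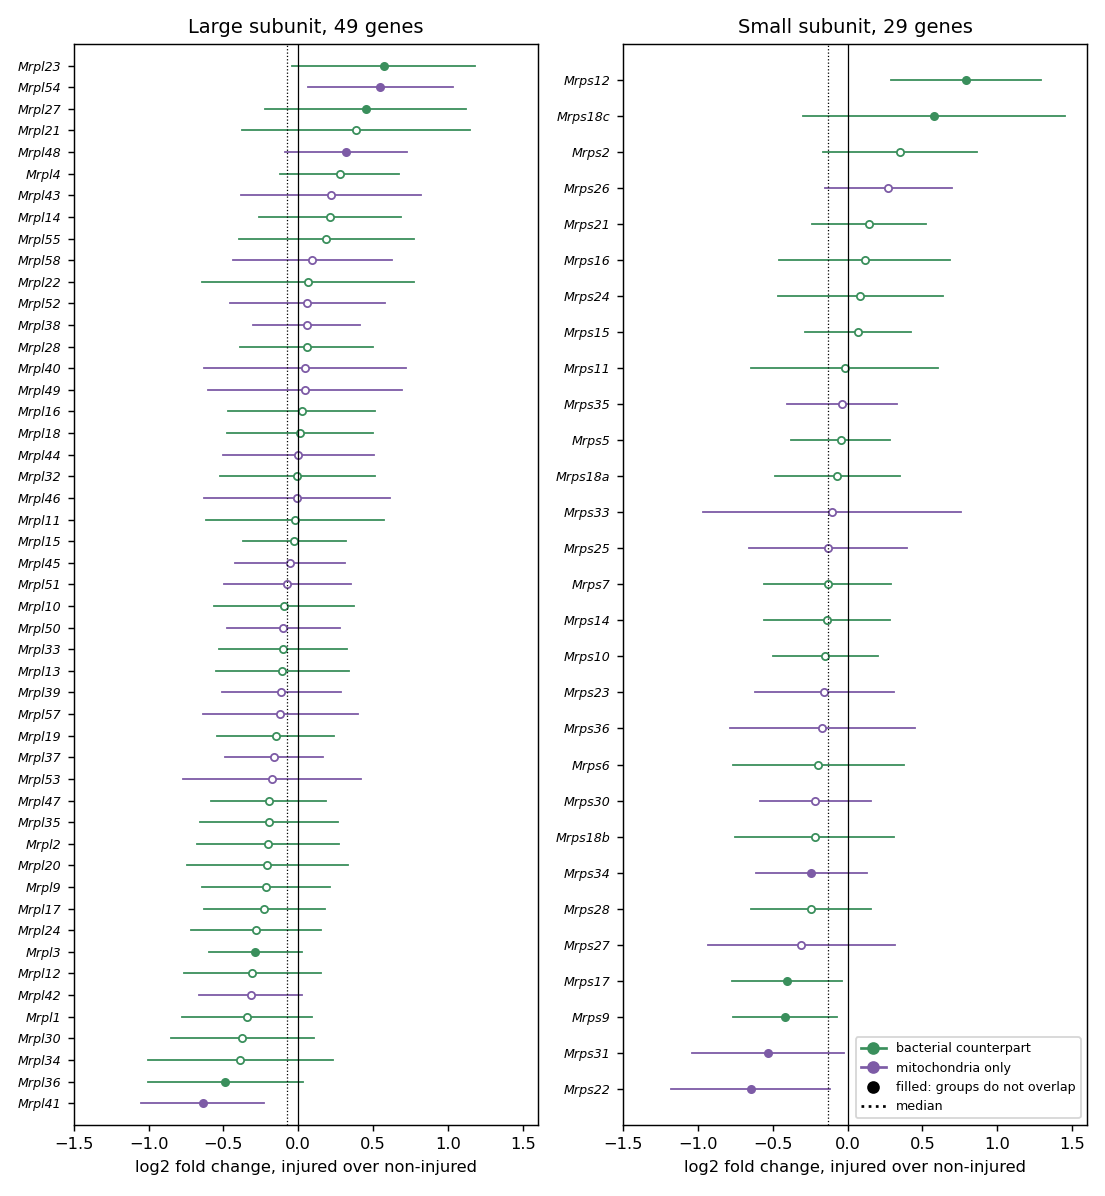
Log2 fold change, injured over non-injured, of each of the 49 large-subunit (left) and 29 small-subunit (right) genes, with 95% confidence intervals as lines. Green marks genes with a bacterial counterpart and purple genes of mitochondria only, filled points are the 14 genes whose groups do not overlap, and the dotted line is the subunit's median, which lies just below 0 in both panels.

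Summed over the 49 large-subunit genes, CPM came to 776 in injured A, 656 in injured B and 770 in injured C, beside 842 in non-injured A, 777 in B and 751 in C. Injured B was the lowest library and the groups overlapped. The means were 734 ± 67.5 CPM (SD, n = 3) in injured and 790 ± 47.01 CPM (SD, n = 3) in non-injured quadriceps, a log2 ratio of -0.11. The 29 small-subunit genes summed to 425, 386 and 443 CPM in injured A, B and C, and to 496, 435 and 429 CPM in non-injured A, B and C. Injured B was again lowest and non-injured A highest, and the groups overlapped. The means were 418 ± 29.1 CPM (SD, n = 3) and 453 ± 37.1 CPM (SD, n = 3), a log2 ratio of -0.12. The difference in each subunit was smaller than or close to the SD within its groups. The large-to-small ratio of the sums hardly moved: it was 1.82, 1.70 and 1.74 in injured A, B and C and 1.70, 1.79 and 1.75 in non-injured A, B and C, with means of 1.75 ± 0.064 and 1.75 ± 0.044 (SD, n = 3 each).

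**Figure D2:**
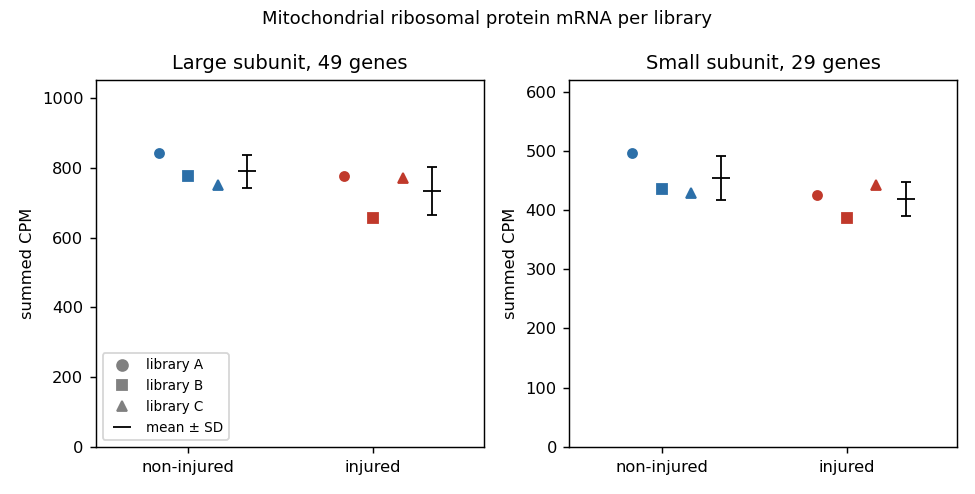
Summed CPM (y axis, from 0) of the large-subunit (left) and small-subunit (right) genes in each library, with the group mean ± SD (n = 3) as black bars and the letter as the shape of the point. Injured and non-injured libraries overlap in both panels, and injured B is the lowest point in each.

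The letters did not agree. Injured over non-injured, the log2 ratio of the sum over all 78 genes was -0.16 for letter A, -0.22 for letter B and 0.04 for letter C. Of the 78 genes, 53 were lower in the injured library of letter A, 51 in that of letter B and 32 in that of letter C. All 3 letters gave a lower injured value for 20 genes (25.6%) and a higher one for 11 (14.1%), beside 21.9% and 21.6% of all tested genes. Among the 9058 tested genes with a mean of at least 50 counts these shares were 29.8% lower and 14.5% higher.

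Library injured B stood low in these genes. It was the lowest of the 6 libraries for 34 of the 78 and below both other injured libraries for 45 (57.7%), against 34.7% of the tested genes in the same range of mean counts. Non-injured A was the highest of the 6 for 29 of the 78. Without injured B the median log2 fold change of the 78 was 0.00, with 39 negative and 39 positive signs. The large-subunit median went from -0.07 to 0.01 in that case, and the small-subunit median from -0.13 to -0.11. Without non-injured A the median of the 78 was -0.06, with 46 negative and 32 positive signs, the large-subunit median -0.06 and the small-subunit median -0.05.

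**Figure D3:**
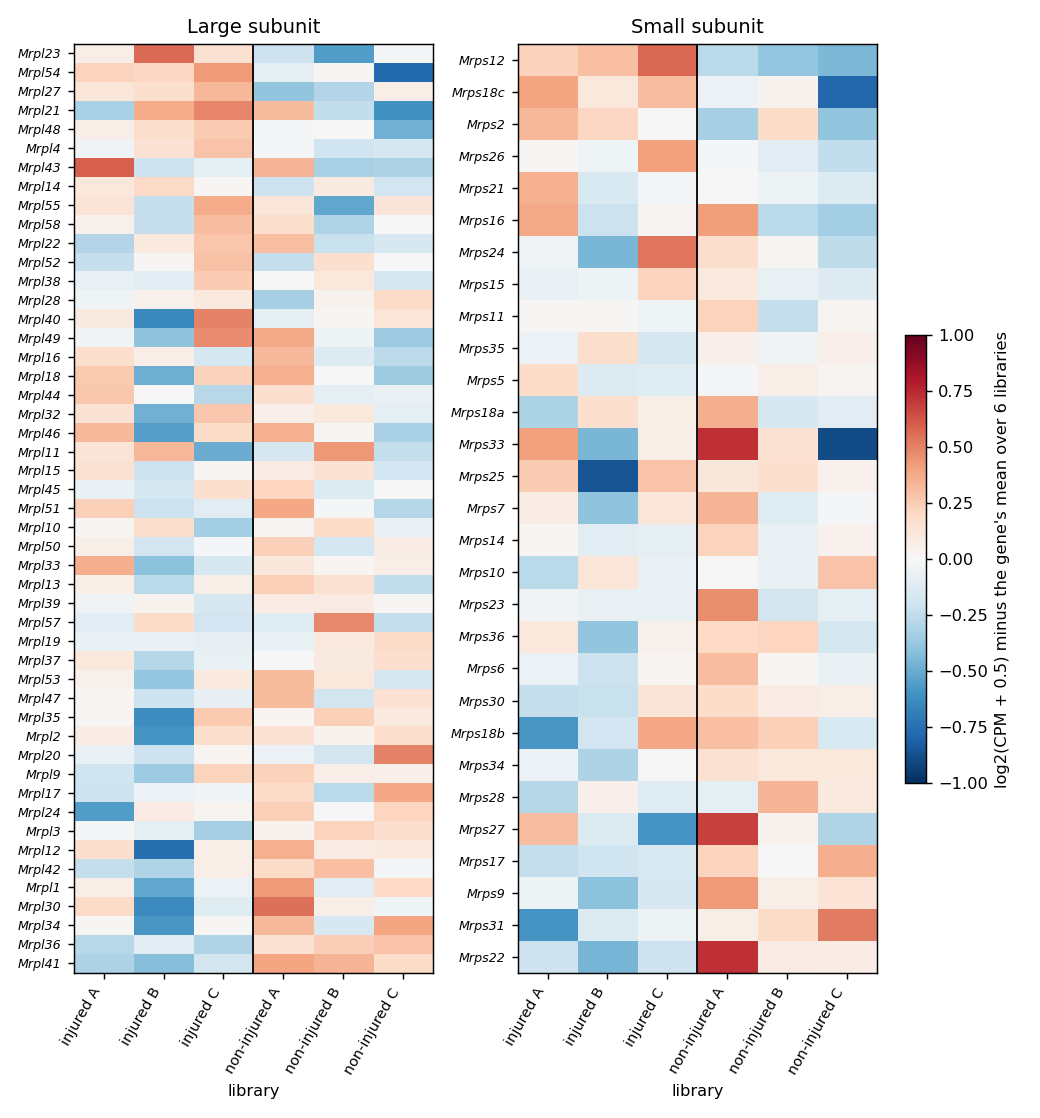
Deviation of each gene's log2(CPM + 0.5) from its own mean over the 6 libraries (colour, in log2 units), with genes in rows ordered by fold change within each subunit and libraries in columns. The column of injured B holds the most blue and that of non-injured A the most red, and a clean split at the black line between the groups is seen in few rows.

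Among large-subunit genes, Mrpl41, a protein of the mitochondria-only set (chr2:24974117-24975098, minus strand), measured 9.34, 8.56 and 10.3 CPM in injured A, B and C and 15.6, 14.9 and 13.4 CPM in non-injured A, B and C. The groups did not overlap, and the spread within each was small. The mean was 9.38 ± 0.848 CPM against 14.6 ± 1.12 CPM (SD, n = 3 each), a log2 fold change of -0.64 (SE 0.19, 95% interval -1.05 to -0.23) with an edgeR adjusted p of 0.136 and, with the letter as a block, 0.0572. Pnpla7, which starts 935 bases from Mrpl41 on the other strand, was also lower in every injured library than in any non-injured one. Its log2 fold change was -0.38 (SE 0.15, edgeR adjusted p = 0.241). Mrpl36, a small protein with a bacterial counterpart (chr13:73328513-73332178, plus strand), measured 5.36, 6.11 and 5.27 CPM in injured and 7.40, 7.92 and 8.17 CPM in non-injured libraries. These groups did not overlap either, and the log2 fold change was -0.49 (SE 0.24, edgeR adjusted p = 0.359). Its first 30 bases overlap the opposite-strand gene Ndufs6, and without a stated strand setting reads there cannot be assigned. Mrpl30 (chr1:37890477-37898535, plus strand) measured 29.4, 16.4 and 23.6 CPM in injured and 38.01, 26.9 and 25.03 CPM in non-injured libraries. Its groups overlapped, and letter A was high in both (log2 fold change -0.37, SE 0.22, edgeR adjusted p = 0.453). Leaving out 1 library gave -0.59 (without injured A) to -0.17 (without injured B).

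At the other end of the large subunit, among genes with a mean of at least 50 counts, stood Mrpl54, of mitochondria only (chr10:81264713-81266934, minus strand), with 15.8, 15.6 and 18.2 CPM in injured and 12.6, 13.5 and 7.63 CPM in non-injured libraries. The groups did not overlap, and non-injured C was far below the other libraries. Its log2 fold change was 0.55 (SE 0.22, 95% interval 0.07 to 1.03, edgeR adjusted p = 0.269). Mrpl48, also of mitochondria only (chr7:100545751-100608301, minus strand), measured 16.4, 17.7 and 18.8 CPM in injured and 15.4, 15.7 and 11.1 CPM in non-injured libraries, a log2 fold change of 0.32 (SE 0.19, edgeR adjusted p = 0.448). The groups of Mrpl48 were set apart by little except non-injured C. Mrpl4, whose bacterial counterpart lines the tunnel through which the new protein leaves (chr9:21002738-21008839, plus strand), measured 13.01, 14.8 and 16.4 CPM in injured and 13.1, 11.6 and 11.8 CPM in non-injured libraries. Its groups overlapped in letter A (log2 fold change 0.28, SE 0.18, edgeR adjusted p = 0.513).

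The large-subunit genes with the highest CPM were Mrpl3 and Mrpl37. Mrpl3, whose bacterial counterpart lies near the site of peptide bond formation (chr9:105053239-105079888, plus strand), measured 61.2, 58.1 and 49.1 CPM in injured and 63.4, 72.3 and 69.6 CPM in non-injured libraries. Every injured library was below every non-injured one, by little in letter A, and the log2 fold change was -0.29 (SE 0.14, 95% interval -0.59 to 0.02, edgeR adjusted p = 0.366). Mrpl37, of mitochondria only (chr4:107055874-107066868, minus strand), measured 36.9, 27.97 and 32.5 CPM in injured and 34.1, 36.5 and 38.4 CPM in non-injured libraries, with overlapping groups (log2 fold change -0.16, SE 0.15).

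Among small-subunit genes, Mrps12 had the largest difference of all 78. Its bacterial counterpart sits at the decoding site and bears on the accuracy of translation (chr7:28739641-28741820, minus strand). It measured 8.88, 9.32 and 11.4 CPM in injured A, B and C and 6.12, 5.63 and 5.35 CPM in non-injured A, B and C. The lowest injured library was well above the highest non-injured one. The mean was 9.86 ± 1.34 CPM against 5.70 ± 0.389 CPM (SD, n = 3 each), a log2 fold change of 0.79 (SE 0.23, 95% interval 0.29 to 1.29) with an edgeR adjusted p of 0.128, the smallest of the 78, and 0.0579 with the letter as a block. Sars2, which starts 172 bases away on the other strand, measured 7.35, 8.56 and 6.55 CPM in injured and 8.42, 6.43 and 9.24 CPM in non-injured libraries. Its groups overlapped, with a log2 fold change of -0.10 (SE 0.24).

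Mrps22, of mitochondria only and a gene of human mitochondrial disease (chr9:98588730-98601660, minus strand), measured 7.96, 6.57 and 7.97 CPM in injured and 15.7, 9.87 and 9.77 CPM in non-injured libraries. The groups did not overlap, but non-injured A was far above the other two non-injured libraries (log2 fold change -0.65, SE 0.25, 95% interval -1.18 to -0.12, edgeR adjusted p = 0.236). Mrps31, of mitochondria only (chr8:22411361-22429665, plus strand), measured 6.12, 8.56 and 9.11 CPM in injured and 9.95, 10.8 and 13.8 CPM in non-injured libraries, without overlap (log2 fold change -0.53, SE 0.23, edgeR adjusted p = 0.302). Mrps9, with a bacterial counterpart (chr1:42851233-42905683, plus strand), measured 30.6, 23.8 and 28.3 CPM in injured and 42.7, 33.2 and 34.9 CPM in non-injured libraries. Its groups did not overlap either, and the adjusted p was 0.241 with edgeR (log2 fold change -0.42, SE 0.16) and 0.0657 with the letter as a block.

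Mrps2 and Mrps26 were next after Mrps12 in the upward direction among small-subunit genes with a mean of at least 50 counts. Mrps2, with a bacterial counterpart (chr2:28468066-28471178, plus strand), measured 11.3, 10.4 and 8.97 CPM in injured and 7.02, 10.2 and 6.69 CPM in non-injured libraries (log2 fold change 0.35, SE 0.24). Mrps26, of mitochondria only (chr2:130563742-130568695, plus strand), measured 13.2, 12.7 and 17.5 CPM in injured and 12.9, 12.1 and 10.98 CPM in non-injured libraries (log2 fold change 0.27, SE 0.20, and 0.09 without injured C). Both pairs of groups overlapped. Mrps10, with a bacterial counterpart and, after Mrps9, the highest CPM of the small subunit (chr17:47368887-47381417, plus strand), measured 25.3, 33.3 and 29.2 CPM in injured and 30.6, 29.3 and 37.5 CPM in non-injured libraries, which overlapped (log2 fold change -0.15, SE 0.16).

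Mammalian mitochondria hold 3 paralogs of the bacterial protein S18, which are thought to occupy different places in the ribosome. Mrps18a, which structures place in the large subunit (chr17:46110986-46128910, plus strand), measured 18.99, 26.7 and 24.8 CPM in injured and 30.7, 21.2 and 21.95 CPM in non-injured libraries. Its log2 fold change was -0.07 (SE 0.19) and turned positive when either letter A library was left out. Mrps18b (chr17:35910379-35916389, minus strand) measured 9.19, 12.2 and 18.5 CPM in injured and 17.3, 16.6 and 12.6 CPM in non-injured libraries, with a log2 fold change of -0.22 (SE 0.25). Mrps18c (chr5:100798627-100804471, plus strand) was the lowest of the 78 in counts, with a mean of 20.2, and measured 3.67, 2.90 and 3.42 CPM in injured and 2.55, 2.76 and 1.34 CPM in non-injured libraries (log2 fold change 0.58, SE 0.40). The groups overlapped for Mrps18a and Mrps18b and not for Mrps18c. Per kb of exon, Mrps18b stood at 6.90 CPM, Mrps18a at 6.52 and Mrps18c at 2.58, over all 6 libraries.

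Of these 18 genes, 6 kept a log2 fold change within 1.5 times of its value whichever library was left out: Mrpl3, Mrpl36, Mrpl41, Mrps9, Mrps12 and Mrps31. Mrpl41 then ran from -0.73 to -0.58 and Mrps12 from 0.65 to 0.85. The other 12 moved further with at least 1 library. Without non-injured C, Mrpl54 went to 0.31, Mrpl48 to 0.15, Mrps18c to 0.30, Mrps2 to 0.22 and Mrps10 to -0.06. Without non-injured A, Mrps22 went to -0.41 and Mrps18a to 0.10. Without injured C, Mrpl4 went to 0.17 and Mrps18b to -0.56, whereas without injured A Mrps18b went to -0.03. Without injured B, Mrpl37 went to -0.07.

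**Figure D4:**
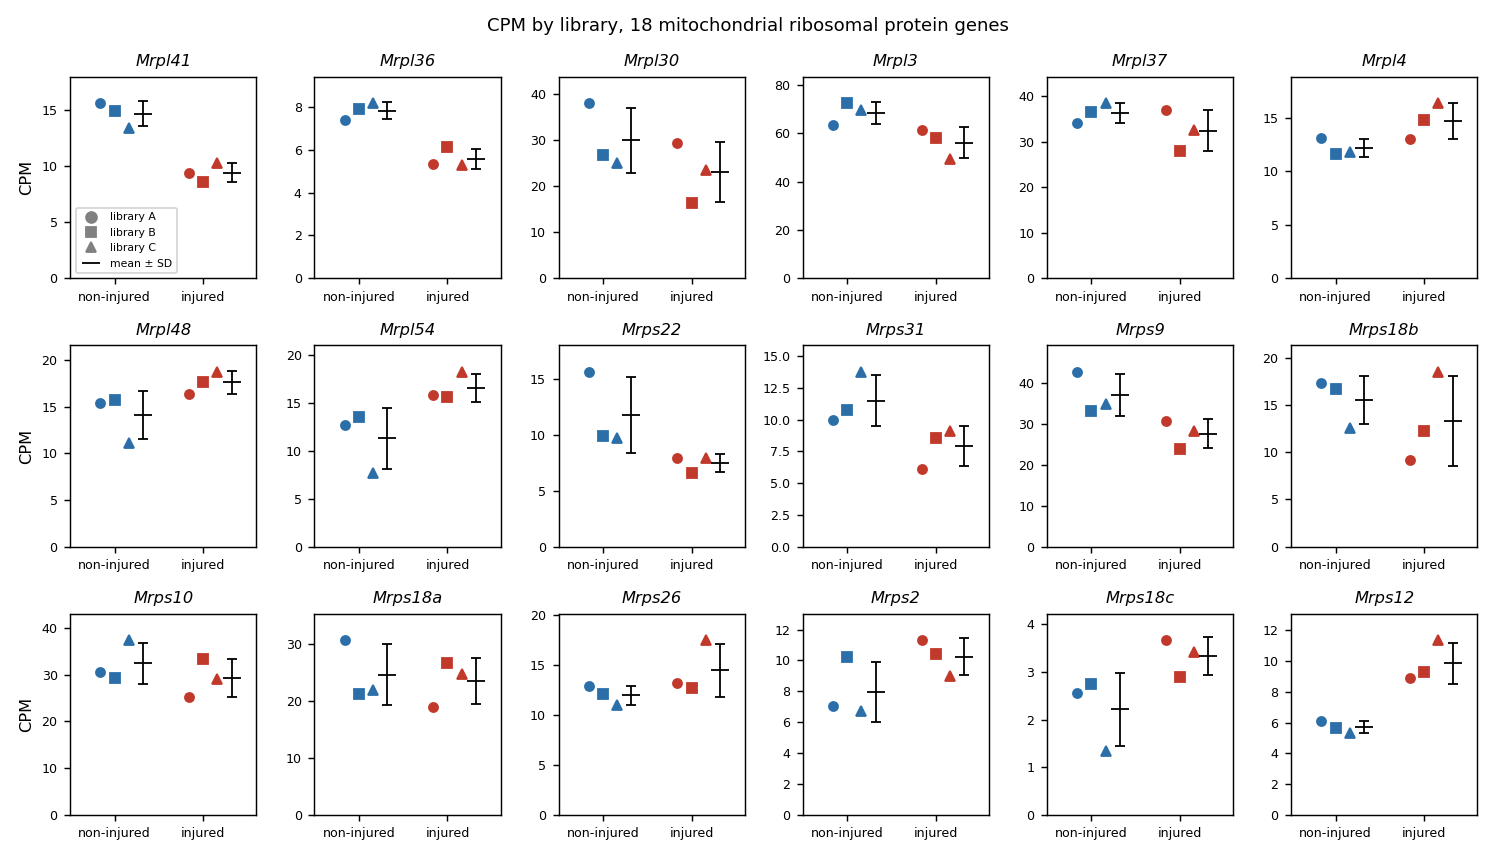
CPM (y axis, from 0) of 18 mitochondrial ribosomal protein genes in each library, with the letter as the shape of the point and the group mean ± SD (n = 3) in black; panels run from the lowest to the highest fold change, first large-subunit, then small-subunit genes. The groups stand clearly apart in Mrpl41 and Mrps12, in opposite directions, and overlap in panels such as Mrpl37 and Mrps10.

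By origin, the 30 large-subunit genes with a bacterial counterpart had a median of -0.10 in log2 fold change and the 19 of mitochondria only -0.01. In the small subunit the medians were -0.06 for the 18 with a bacterial counterpart and -0.17 for the 11 of mitochondria only. Of those 11, 10 had a negative sign, the exception being Mrps26, and 3 (Mrps22, Mrps31 and Mrps34) had groups that did not overlap. Over all tested genes in the same range of mean counts 52.4% had a negative sign, and over all tested genes 9.57% lay lower without overlap. Among the 9058 tested genes with a mean of at least 50 counts, 60.5% had a negative sign and 1187 lay lower without overlap. Without a test of the difference, these medians and counts are a description only. Subunits here follow the symbol. Among the 11, structures place Mrps30 in the large subunit, and Mrps36 is now held to belong to the oxoglutarate dehydrogenase complex. Assigned by structure, with Mrps18a also in the large subunit and Mrps36 in neither, the medians were -0.07 (large) and -0.13 (small). The log2 ratios of summed CPM were then -0.11 (large) and -0.11 (small). Per kb of exon, levels over all 6 libraries ran from 1.23 CPM (Mrpl23) to 27.1 CPM (Mrps21), with medians of 5.502 CPM in the large and 4.05 CPM in the small subunit. The length joins all annotated exons of a gene, 4883 bases for Mrpl23. The pseudogene of Mrpl23 also held more counts than the gene, so its low level may reflect both. Mrps28 stood at 21.04 CPM per kb and Mrpl12, which binds translation factors at the ribosome's stalk, at 20.5. These 4 genes were chosen after their values were seen.

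Processed pseudogenes bear on a few values. The table held 3 processed pseudogenes named for these genes, and 30 of the 78 genes had fractional values, as arise where a counter divides reads. The pseudogene Mrpl23-ps1 had a mean of 127 counts, against 43.3 for Mrpl23 itself. Mrpl23 measured 6.12, 8.86 and 6.55 CPM in injured and 4.97, 3.79 and 5.76 CPM in non-injured libraries, without overlap. The sum of gene and pseudogene was 19.4, 29.5 and 29.5 CPM in injured and 20.03, 21.6 and 20.2 CPM in non-injured libraries, which overlapped. Mrpl48 likewise had groups that did not overlap, whereas with its pseudogene added the sums were 18.2, 20.9 and 22.1 CPM in injured and 18.9, 19.2 and 12.99 CPM in non-injured libraries, which did. Mrpl23 was named after its values were seen. In addition, 42 of the 78 genes overlap another annotated gene, 36 of them on the opposite strand and 13 on the same strand, and reads in the shared stretches may be counted for either. Of the 18 genes plotted by library, these are Mrpl3, Mrpl36, Mrpl48, Mrps9, Mrps22, Mrps26 and the Mrps18 paralogs.

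The mitochondrial ribosomal RNAs were higher in every injured library than in any non-injured one. The small-subunit RNA mt-Rnr1 measured 9395, 9974 and 13120 CPM in injured A, B and C and 8569, 7233 and 6122 CPM in non-injured A, B and C, a log2 fold change of 0.57 (SE 0.17, edgeR adjusted p = 0.129). For the large-subunit RNA mt-Rnr2 the values were 46712, 43481 and 59383 CPM in injured and 34963, 32358 and 27041 CPM in non-injured libraries, a log2 fold change of 0.66 (SE 0.15, edgeR adjusted p = 0.0681). Neither passed the threshold. With the letter as a block both did, at adjusted p of 0.0458 and 0.0238, as 3.21% of all tested genes did in that direction. DESeq2 called mt-Rnr2 alone. How ribosomal RNA was removed or messenger RNA selected is not given in the sources used here. The protein genes of the same ribosome, with a median log2 fold change of -0.10, did not share this direction, and the difference between RNA and protein genes was not tested.

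Of the protein genes that act with the mitochondrial ribosome (listed next), 0 passed the threshold in edgeR's main test, with the block or in DESeq2, beside the 0.715% and 0.0311% of all tested genes called in the main test. The 5 subunit proteins that carry other symbols had a median of -0.13, from -0.33 (Chchd1) to 0.05 (Aurkaip1). Ict1, a release factor built into the large subunit, is listed as Mrpl58 and counted among the 78. The 26 tested genes of ribosome assembly and ribosomal RNA modification had a median of -0.14, with 20 negative signs, from -0.69 (Mettl15, a methyltransferase of the small-subunit RNA) to 0.42 (Ybey, an RNA-processing endonuclease).

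The list of 15 translation factors was drawn broadly. Besides initiation, elongation, release and recycling factors it held Mtfmt, Taco1, Lrpprc, Slirp and Oxa1l, which are none of these. The 15 genes had the lowest median of the related lists, -0.30, with 13 negative signs. In 4 of them the injured libraries were all below the non-injured ones. Of all tested genes, 49.8% had a negative sign and 9.57% lay lower without overlap. Among the 9058 tested genes with a mean of at least 50 counts, 60.5% had a negative sign and the median was -0.07. In 1187 of those 9058 every injured library was below every non-injured one. Mtrf1, a release factor that ends translation, was the lowest of the 15 genes in the translation factor list. It measured 3.06, 5.20 and 6.41 CPM in injured and 7.65, 8.95 and 9.10 CPM in non-injured libraries. Its groups did not overlap (log2 fold change -0.80, SE 0.29, edgeR adjusted p = 0.208). The highest was Tsfm, the partner of the elongation factor Tufm, at 0.14 (SE 0.24). Summed over the 15 genes the injured libraries held 314, 280 and 309 CPM and the non-injured 382, 344 and 344 CPM, so that the groups did not overlap.

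The 20 genes for mitochondrial aminoacyl-tRNA synthesis, which charge the transfer RNAs, had a median of -0.04 and ranged from -0.38 (Gatb, a subunit of the glutaminyl-tRNA amidotransferase) to 0.34 (Lars2, the leucyl-tRNA synthetase). The 12 regulators of nuclear genes for mitochondria had a median of -0.03. They ranged from -0.23 (Gabpb2, a subunit of the ETS factor GABP) to 0.74 (Myc, SE 0.37, edgeR adjusted p = 0.373). Of 27 tested pairs of a mitochondrial ribosomal protein gene and its head-to-head neighbour, 16 had the same sign of change and 11 did not, and 0 neighbours passed the threshold.

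**Figure D5:**
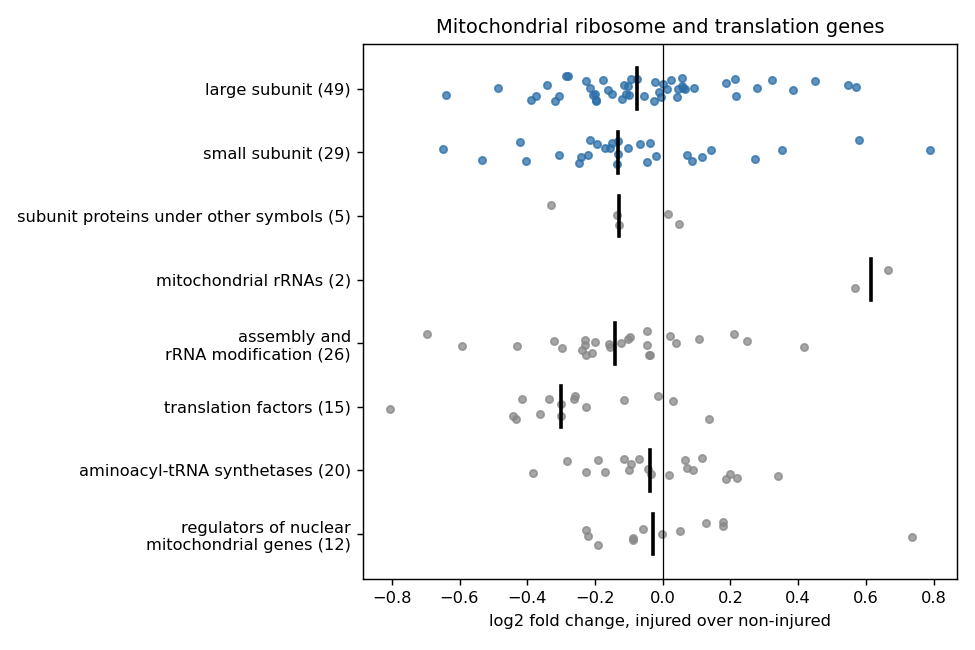
Log2 fold change, injured over non-injured (x axis), of each tested gene in the 2 subunits (blue) and in the related gene lists (grey), with the number of genes in brackets and the median as a black bar. The broadly drawn list of translation factors has the lowest median (-0.30) and both mitochondrial ribosomal RNAs lie above 0.5.

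Marker lists of other cell types were measured in the same libraries. Of 10 tested macrophage markers 4 rose, and 8 with the letter as a block (median log2 fold change 1.14). The summed level of the 11 listed macrophage markers, tested or not, ran from 115 to 198 CPM in injured libraries. In non-injured libraries it ran from 55.2 to 70.2 CPM. Of 7 markers of fibro-adipogenic progenitors, the connective tissue cells of muscle, 2 rose (median log2 fold change 0.42). Log2 fold changes of these markers ran from 0.005 (Dcn) to 2.56 (Col1a1), and 5 of the 7 lay within 0.5 of 0. Their sums were 452 to 727 CPM in injured and 195 to 250 CPM in non-injured libraries. Of 5 erythroid markers, which stem from red blood cells, 1 rose, and 4 with the block (median log2 fold change 1.37), with sums of 132 to 324 CPM in injured and 71.4 to 151 CPM in non-injured libraries. Of 6 endothelial markers 0 passed the threshold (median 0.15), and the sums of 83.6 to 89.4 CPM and 70.8 to 84.7 CPM overlapped. Adipocyte markers summed to 19.5 to 26.9 CPM in injured and 35.8 to 57.7 CPM in non-injured libraries, with 0 of 5 past the threshold and 3 with the block. Of 3 tested tendon markers 0 passed the threshold, and 2 with the block, with sums of 49.2 to 56.7 CPM in injured and 34.4 to 42.9 CPM in non-injured libraries. Muscle fibre markers summed to 165258 to 172415 CPM in injured and 180183 to 187427 CPM in non-injured libraries. The part of cell composition in the values of the mitochondrial ribosomal protein genes was not tested.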

How the data were processed

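The authors deposited estimated counts per gene for 6 libraries. STAR 2.7.8a, Partek and DESeq2 and the builds mm10 and hg19 are named in the submitters' processing notes, whereas counting tool, strand setting and annotation were not given in the sources used here. The lowest row maximum was 10.0, so genes below that value are absent. The exon length was that of all annotated exons of a gene joined, taken from GENCODE M21, not from the table.

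Counts were rounded, filtered with filterByExpr, scaled by TMM and tested with edgeR 4.0.16 in R 4.3.3 (quasi-likelihood F test, two-sided, injured against non-injured, Benjamini-Hochberg over 16095 genes, adjusted p under 0.05). The standard error of a log2 fold change is its size divided by the root of F. DESeq2 1.42.0, other scalings, filters, left-out libraries and a letter block were alternatives. Deviations from the group means correlated between the 2 libraries of a letter at 0.316 (A), 0.208 (B) and 0.113 (C), and the letters were taken to pair libraries on that ground alone. Genes named were those past the threshold in either fit, the 3 highest and 3 lowest fold changes per subunit with a mean of at least 50 counts, the 2 highest by CPM, the Mrps18 paralogs, both ribosomal RNAs and the extremes of each list. The gene family was picked for study, and the related lists drawn up, with earlier results of these data known; membership follows the symbol alone. The biological coefficient of variation was 0.202.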

Additional observations from a re-analysis of the deposited data

How the results depend on the processing

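In the 14 alternative fits, 0 of the 78 mitochondrial ribosomal protein genes passed the threshold (66 of them were tested under the filter at a mean of 50 counts). Counts over all genes did move. DESeq2 called 252 higher and 75 lower, the letter as a replicate block 516 and 427, no filter on low counts gave 17 lower, a mean of at least 50 counts 3 lower, and leaving out both letter A libraries 132 lower. Leaving out 1 library gave 20 to 104 higher and 0 to 25 lower genes. Of the 2 mitochondrial ribosomal RNAs, 1 passed with upper quartile scaling, 1 with DESeq2, 2 with the letter as a replicate block and 2 without both letter A libraries. The block changed no other call among these genes and the related mitochondrial lists. The median log2 fold change of the 78 ran from -0.16 (without non-injured C) to 0.00 (without injured B). Mrps18a turned positive under the filter at a mean of 50 counts (0.0046) and without both letter A libraries (0.25), and leaving out 1 library gave -0.18 to 0.10. Mrps18b turned positive without both letter A libraries (0.066). The cause was not tested. With 3 libraries a group and members at a mean of 20.2 to 462 counts, the median standard error of 0.22 sets which differences can be seen.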

Other observations

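In 2 mitochondrial ribosomal protein genes, Mrpl23 and Mrpl48, the groups did not overlap for the gene alone and overlapped once the counts of its processed pseudogene were added. Whether reads were divided between gene and pseudogene was not tested. The log2 ratio of group means was 0.57 for Mrpl23 alone, 0.27 for Mrpl23-ps1 and 0.34 for their sum. For Mrpl48 it was 0.32 alone, -0.07 for the pseudogene Mrpl48-ps and 0.26 for the sum. Mrps36 gave -0.17 alone, 0.12 for Mrps36-ps2 and -0.09 for the sum.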
